A study of Mus musculus with 20 samples.

Results

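The clock output transcription factors are 8 genes that lie one step downstream of the core circadian clock: Dbp, Tef, Hlf, Nfil3, Bhlhe40, Bhlhe41, Ciart and Rora. They were listed by name, from their family and known role, and all 8 were found by symbol among the 55401 genes of the count table. The list was chosen with earlier results of these data known, so members' shares set beside those of all genes are descriptions. Their RNA was measured by sequencing of gastrocnemius muscle, a fast calf muscle, in 20 C57BL/6 mice. Of these, 10 had received HK (Haenkenium, a standardised extract of the sage Salvia haenkei) in the drinking water at 0.5 mg per kg body weight per day from 20 months of age, and 10 were untreated. Both groups held 5 males and 5 females, and all mice were 24 months old at collection, after 4 months of treatment in the HK group. The labels give no transgene or deletion, no samples were pooled, and young mice were not analysed here. The libraries came from 2 sequencing experiments, called batches in the labels. Batch 1 held 8 mice, with 2 per treatment and sex, and batch 2 held 12, with 3 per treatment and sex. The time of day at which the muscles were taken is not given in the sources used here.

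In mammals the CLOCK and BMAL1 proteins (BMAL1 is the product of Arntl) drive daily transcription through E-box sequences, and the period and cryptochrome proteins feed back on them. The factors described here pass that rhythm on. The PAR bZIP activators DBP, TEF and HLF bind D-box sequences, which the repressor NFIL3 (E4BP4) also binds, so that the 2 arms compete for the same sites. BHLHE40 and BHLHE41 (DEC1 and DEC2) are E-box repressors, CIART (CHRONO) represses CLOCK-BMAL1 directly, and RORA is a nuclear receptor that activates Arntl through ROR elements, at which the REV-ERB proteins (Nr1d1 and Nr1d2) repress. In skeletal muscle this network is known to time the expression of metabolic genes.

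Promoter sequence from RefSeq on GRCm38.p6 was searched for the sites these factors act through, because it shows which members carry such a site themselves. The 250 bases before each RefSeq start were searched on both strands for 3 kinds of site. The E-box was searched as CACGTG and, as a variant, CACGTT. The D-box was searched as TTATGTAA or as the more symmetrical form TTACGTAA, and the ROR element as TAGGTCA or as the form with G at its second base, TGGGTCA. RefSeq starts were given for 7 of the 8 members, all but Bhlhe40, and 2 for Tef. Of 32851 RefSeq windows of this length, 6.02% held the E-box and 3.85% its variant, 0.819% and 0.113% the D-boxes and 2.23% and 3.24% the ROR elements, in the order given. The E-box reads the same on both strands and was counted once per place, and no 2 matches overlapped in the members. Ciart held 3 copies of the E-box, which began at bases -116, -58 and -44 from the start. At least 3 copies stood in 20 of the 32851 windows (0.0609%). Both Tef windows and the Bhlhe41 window held 1 copy each, and the Nfil3 window held 1 ROR element on the reverse strand (bases -12 to -6, read as TGACCTA on the gene's strand). All 250 bases of the upstream Tef window lie in exons of Tef itself in GENCODE. The Dbp, Hlf and Rora windows held none of these letters. The stretches that carry the matches, apart from the upstream Tef window, are shown 5′ to 3′ on the gene's strand, with the matches in capitals. Except for Nfil3, they leave out bases that GENCODE places in an exon of the same gene. Exons of other genes were not looked at. The Ciart stretch is chr3:95882252-95882478 (minus strand), Bhlhe41 is chr6:145865559-145865670 (minus strand), the downstream Tef start is chr15:81811164-81811413 (plus strand) and the last 30 bases before the Nfil3 start are chr13:52981040-52981069 (minus strand).
Ciart: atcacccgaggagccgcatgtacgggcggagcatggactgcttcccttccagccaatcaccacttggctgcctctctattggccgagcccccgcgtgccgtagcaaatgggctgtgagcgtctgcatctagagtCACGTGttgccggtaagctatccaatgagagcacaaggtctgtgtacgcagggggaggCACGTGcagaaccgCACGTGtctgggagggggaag
Bhlhe41: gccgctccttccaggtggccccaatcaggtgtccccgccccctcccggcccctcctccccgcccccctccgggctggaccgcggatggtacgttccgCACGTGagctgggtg
Tef: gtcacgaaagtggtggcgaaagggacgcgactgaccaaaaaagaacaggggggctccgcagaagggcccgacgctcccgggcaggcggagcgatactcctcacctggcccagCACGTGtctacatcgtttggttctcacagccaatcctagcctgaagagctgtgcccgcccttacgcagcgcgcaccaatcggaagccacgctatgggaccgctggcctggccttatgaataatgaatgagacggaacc
Nfil3: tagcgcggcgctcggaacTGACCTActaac

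The total count per mouse lay between 13900180 and 30469644, with a range of 13994011 to 30469644 in batch 1 and 13900180 to 17951683 in batch 2. Every member had counts in every mouse and passed the filter on low counts that left 13626 genes. The lowest count of any member was 31 (Ciart) and the highest 10782 (Tef). Rorb, a gene of the same family as Rora, was at 0 to 8 counts and did not pass. The tissue label was borne out by the 8 muscle fibre markers (Ckm, Acta1, Myh4, Myh1, Myh2, Ttn, Des and Mb), which summed to 110733 to 153644 CPM (read counts scaled by the effective library size of each mouse) in each mouse. None of the 3 T cell markers passed the filter.

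Levels were compared between members as CPM per kb of exon, since longer genes collect more reads. Tef was highest, at 36.2 ± 8.02 CPM per kb (SD, n = 20), and Hlf lowest, at 2.16 ± 0.863, although both are activators of the same family. The third PAR bZIP gene, Dbp, stood between them at 15 ± 10.5 CPM per kb. Bhlhe40 at 32.9 ± 12.4 CPM per kb and Nfil3, with a median of 26.9 and the widest SD of the 8 (24.1), followed Tef by their means, and Rora at 11.3 ± 2.43 and Bhlhe41 at 9.17 ± 4.07 followed Dbp. Ciart was at 2.87 ± 3.0 CPM per kb. Between neighbours in this order only Bhlhe41 and Ciart differed by more than the larger of their SDs (Bhlhe41 was the higher in 19 of 20 mice), so the places of the other neighbours do not differ beyond their spread. The order also depended on the batch. In batch 1 it ran Tef, Bhlhe40, Dbp, Rora, Bhlhe41, Nfil3, Hlf, Ciart, and the gaps from Tef to Bhlhe40, from Bhlhe40 to Dbp, from Dbp to Rora and from Nfil3 to Hlf were each larger than the SDs. In batch 2 it ran Nfil3, Tef, Bhlhe40, Rora, Dbp, Bhlhe41, Ciart, Hlf, and only the gaps from Bhlhe40 to Rora and from Bhlhe41 to Ciart were. The order of the means was the same with the longest transcript in place of all exons, and with the size factors of DESeq2. The levels themselves depended on the length: with the longest transcript, Tef was at 64.6 and Dbp at 24.5 CPM per kb.

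**Figure D1:**
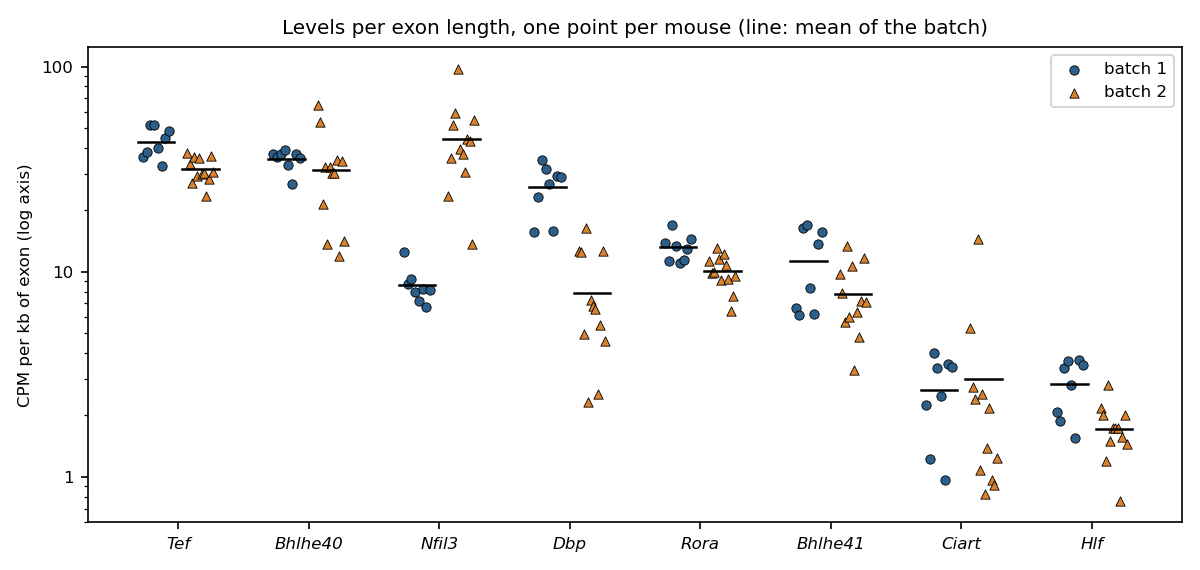
CPM per kb of exon (log axis) of the 8 members, one point per mouse, with blue circles for batch 1 and orange triangles for batch 2 and a line at the mean of each batch. Nfil3 stands at 8.58 CPM per kb in batch 1 and 44.3 in batch 2, while Dbp stands at 25.8 and 7.87.

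The first comparison asked which genes differed between HK and untreated muscle. None of the 8 members differed between HK and untreated mice past an adjusted p of 0.05 in edgeR's quasi-likelihood test, in which sex and batch were terms of the fit. Neither did any other gene (0 of 13626 tested, 0%), while 835 genes (6.13%) had an unadjusted p under 0.05. DESeq2's Wald test called 7 genes (0.0514%), limma voom 0, and neither called a member. Without any filter on low counts, edgeR called 502 of 30096 genes (1.67%) and 5 members, a fit in which the spread was taken from the trend over all genes. All 8 fitted differences were positive, against 51.0% of all genes tested, and their median was 0.31 on the log2 scale against 0.0024 over all genes. In bulk tissue, fewer cells of a type and less RNA per cell cannot be told apart.

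Ciart, the CLOCK-BMAL1 repressor, had the largest fitted difference. In untreated males it was at 7.99, 7.79, 2.19, 2.07 and 2.80 CPM, and in HK males at 9.09, 7.67, 32.8, 2.45 and 5.73 CPM (the first 2 values of each group are batch 1). In untreated females it was at 5.59, 2.18, 1.87, 3.11 and 4.90 CPM, and in HK females at 5.04, 2.77, 12, 6.20 and 5.39 CPM. The groups overlapped: 8 of 10 HK mice were above the untreated median, 3 of them above the highest untreated mouse, and HK male 3 stood far above all others. The fitted HK difference was 1.09 on the log2 scale (SE 0.42, 95% interval 0.22 to 1.95), with an unadjusted p of 0.0166 and an adjusted p of 0.795 in edgeR's quasi-likelihood test, and Ciart was the only member with an unadjusted p under 0.05. Without HK male 3 it was 0.69 (SE 0.32, adjusted p = 0.758). Fitted in each batch alone, it was 0.05 (SE 0.26) in batch 1 and 1.89 (SE 0.54) in batch 2.

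The repressor Nfil3 was at 13.6, 44.7 and 111 CPM in untreated mice and at 16.1, 59.9 and 198 CPM in HK mice (lowest, median and highest of 10 each). Its fitted HK difference was 0.39 (SE 0.22, adjusted p = 0.805 in edgeR). The E-box repressors were fitted at 0.34 (SE 0.22, adjusted p = 0.830) for Bhlhe40 and 0.27 (SE 0.17, adjusted p = 0.818) for Bhlhe41. Bhlhe40 lay between 56.3 and 177 CPM in untreated mice, with 4 of 10 HK mice above that range, and the highest were HK females 3 and 4 at 305 and 253 CPM. Rora was at 84.2 to 189 CPM in untreated and 119 to 221 CPM in HK mice, with a fitted difference of 0.18 (SE 0.10, adjusted p = 0.811).

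The PAR bZIP activators showed the same pattern of wide overlap. Dbp was at 7.55, 28.9 and 87.6 CPM in untreated and 6.90, 42.2 and 105 CPM in HK mice (lowest, median and highest), and its fitted difference was 0.34 (SE 0.28, 95% interval -0.25 to 0.93). Tef was fitted at 0.12 (SE 0.08, 95% interval -0.04 to 0.29) and Hlf at 0.13 (SE 0.17, 95% interval -0.22 to 0.48). Their adjusted p-values in edgeR were 0.852, 0.830 and 0.909. The intervals of these 3 genes thus leave room for a rise of up to 0.93 log2 units for Dbp and 0.29 for Tef. With each mouse left out in turn, all 8 fitted differences stayed positive and none was called, while several moved by over 1.5 times. The range was 0.22 to 0.47 for Dbp, 0.074 to 0.15 for Tef, 0.061 to 0.18 for Hlf, 0.23 to 0.48 for Nfil3, 0.21 to 0.43 for Bhlhe40, 0.17 to 0.35 for Bhlhe41, 0.69 to 1.24 for Ciart and 0.12 to 0.23 for Rora. In batch 1 alone, the 2 values for Hlf (-0.09) and Bhlhe41 (-0.01) were negative.

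The genes around the members were described by 2 lists. Of 13 core clock genes, all tested, 10 had a positive fitted HK difference and 0 were called. The lowest p-values were those of Per1, a period gene, at 0.99 (SE 0.22, unadjusted p = 0.000161, adjusted p = 0.440 in edgeR), and Nr1d2, a REV-ERB gene, at 0.20 (adjusted p = 0.795). Of 12 genes known to follow the clock in muscle or other tissues, 10 were positive and 0 were called, with the lowest p-values for the deubiquitinase gene Usp2 (0.40, SE 0.11, adjusted p = 0.795) and the cell cycle kinase gene Wee1 (0.35, adjusted p = 0.795).

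Whether the HK difference itself differed between the sexes or the batches was tested by interaction terms in edgeR, which called 0 of 13626 genes each (0%), with 476 genes (3.49%) and 409 genes (3.0%) at an unadjusted p under 0.05. Of the 8 members, 3 had a positive interaction value by sex and 8 by batch, beside 6964 and 6806 of all 13626 genes. The members' unadjusted p-values lay between 0.131 and 0.916 for sex and between 0.0267 and 0.903 for batch. The lowest was that of Ciart by batch, with a difference of differences of 1.78 on the log2 scale (SE 0.74, adjusted p = 1.0), which was 1.13 (SE 0.60) without HK male 3. Of the 13 core clock genes, 11 had a positive value by sex and 13 by batch, with the lowest p-values by sex for the REV-ERB gene Nr1d1 (-0.50, adjusted p = 0.998) and the cryptochrome gene Cry1 (0.28, unadjusted p = 0.0887), and by batch for the cryptochrome gene Cry2 (0.48, unadjusted p = 0.103) and Clock (0.22, unadjusted p = 0.241). Of the 12 clock-controlled genes, 8 and 6 were positive, with the lowest p-values by sex for the hexokinase gene Hk2 (0.40, unadjusted p = 0.0669) and Usp2 (0.30, unadjusted p = 0.178), and by batch for Pdk4, a kinase of pyruvate dehydrogenase (-1.79, unadjusted p = 0.0404, adjusted p = 1.0), and the mitochondrial carrier gene Ucp3 (-1.05, unadjusted p = 0.179). Without a filter on low counts, Ciart was called in the test by batch, with 225 of 30096 genes (0.748%).

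**Figure D2:**
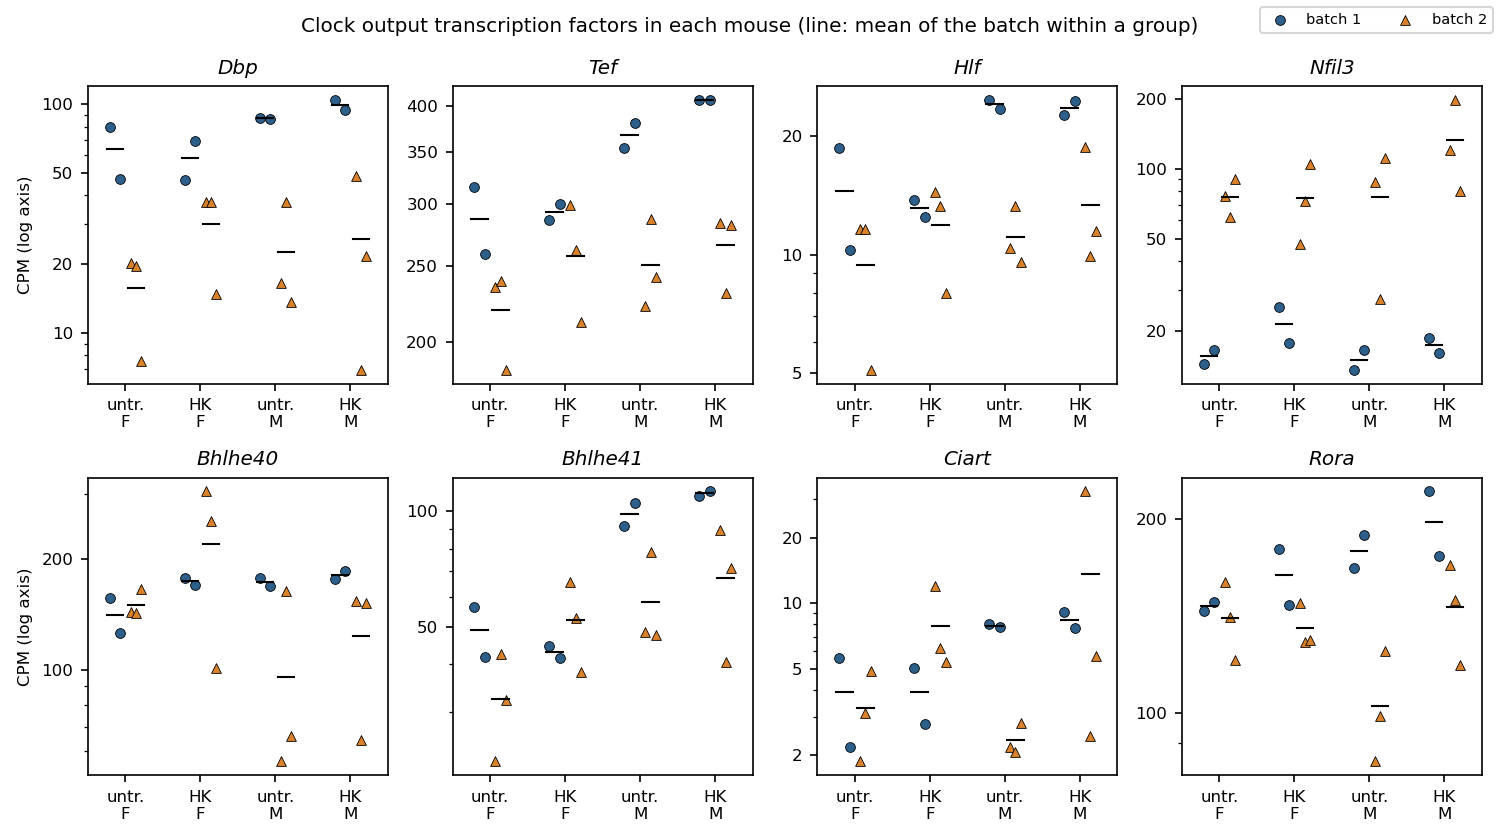
CPM (log axis) of each member in each of the 20 mice, by treatment and sex (F, female; M, male; untr., untreated), with blue circles for batch 1, orange triangles for batch 2 and a line at the mean of each batch within a group. Nfil3 is the member whose batches do not overlap, and the Ciart value of 32.8 CPM is HK male 3.

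Between the sexes, 2 of the 8 members passed the test, both higher in males, against 16.1% of all genes tested (8.79% higher and 7.33% lower in males). Bhlhe41, the E-box repressor, was the clearer of them. It was at 91.4, 105, 48.4, 78.4 and 47.6 CPM in untreated males and 56.2, 41.7, 22.3, 42.5 and 32.3 CPM in untreated females. In HK males it was at 110, 113, 89.4, 40.5 and 71.4 CPM and in HK females at 44.5, 41.5, 65.5, 52.9 and 38.1 CPM. Of 10 males, 9 were above the female median and 7 above the highest female, and HK male 4, at 40.5 CPM, was the exception below the female median. The fitted difference was 0.83 on the log2 scale (SE 0.17, 95% interval 0.48 to 1.18), which is 1.78-fold (adjusted p = 0.00180 in edgeR's quasi-likelihood test). It stayed called with each mouse left out in turn (adjusted p from 0.000442 to 0.00472). Fitted in untreated mice alone it was 0.90 (adjusted p = 0.0219, against 3.6% of all genes called), and in HK mice alone 0.76 (adjusted p = 0.117, against 4.82%).

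Tef, the most abundant PAR bZIP activator, was at 222, 286 and 408 CPM in males and 184, 261 and 315 CPM in females (lowest, median and highest of 10 each), and 4 males were above the highest female. Its fitted difference was 0.24 (SE 0.08, adjusted p = 0.0411 in edgeR). That call was lost in 12 of the 20 fits with a mouse left out (adjusted p from 0.0517 to 0.0917): untreated males 1, 2 and 4, untreated females 2 and 5, HK males 1, 2, 3 and 5, and HK females 1, 2 and 5. Hlf was fitted at 0.45 (SE 0.17, adjusted p = 0.0761), and of the 20 fits with a mouse left out it passed in 1, without HK female 3 (adjusted p = 0.0491). Hlf passed in limma voom (0.53, adjusted p = 0.0303), and not in DESeq2's Wald test (0.45, adjusted p = 0.0511). The other values were 0.63 (SE 0.40) for Ciart, 0.33 (SE 0.28) for Dbp, 0.19 (SE 0.22) for Nfil3, 0.02 (SE 0.10) for Rora and -0.37 (SE 0.23) for Bhlhe40, with adjusted p-values from 0.282 to 0.935. The Ciart value was 0.065 without HK male 3, and the Nfil3 value 0.024 without HK male 4. Without a filter on low counts 6 members were called, against 9.25% of all genes.

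The sex difference was also fitted within each batch, and the difference between the batches was not tested. Within batch 1, where 1316 of 13664 genes (9.63%) were called, 5 members were higher in males: Bhlhe41 by 1.19 (SE 0.11), Ciart by 1.04 (SE 0.27), Hlf by 0.79 (SE 0.15), Dbp by 0.63 (SE 0.17) and Tef by 0.42 (SE 0.07), with adjusted p-values in edgeR from 0.000268 to 0.0472. Within batch 2, where 878 of 13329 genes (6.59%) were called, no member was. There the Bhlhe41 difference was 0.60 (SE 0.23, adjusted p = 0.129) and the Tef difference 0.11 (SE 0.11, adjusted p = 0.574). For Hlf, the 4 batch 1 males were at 22.7 to 24.8 CPM against 10.3 to 18.7 CPM in the batch 1 females, while in batch 2 the 6 males at 9.60 to 18.8 CPM overlapped the 6 females at 5.10 to 14.4 CPM. No core clock gene of 13 was called between the sexes (the lowest p-values were those of Cry2, at 0.38 with an adjusted p of 0.0827, and Csnk1d, at 0.09 with an adjusted p of 0.167), and of the 12 clock-controlled genes 2 were, a share near the 16.1% of all genes, both higher in males: the haem synthesis gene Alas1 (0.33, adjusted p = 0.00138) and Usp2 (0.36, adjusted p = 0.0266). In the same comparison 3 of 4 adipocyte markers and 3 of 3 Schwann cell markers were lower in males. Of the other lists, 1 of 5 macrophage markers was higher, and 1 muscle fibre marker was higher and 1 lower. The summed adipocyte markers were at 66.9 to 148 CPM in males and 92.7 to 239 CPM in females, and the Schwann cell markers at 8.28 to 51.4 and 28.4 to 79.9 CPM. Their part in the members' differences was not tested.

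**Figure D3:**
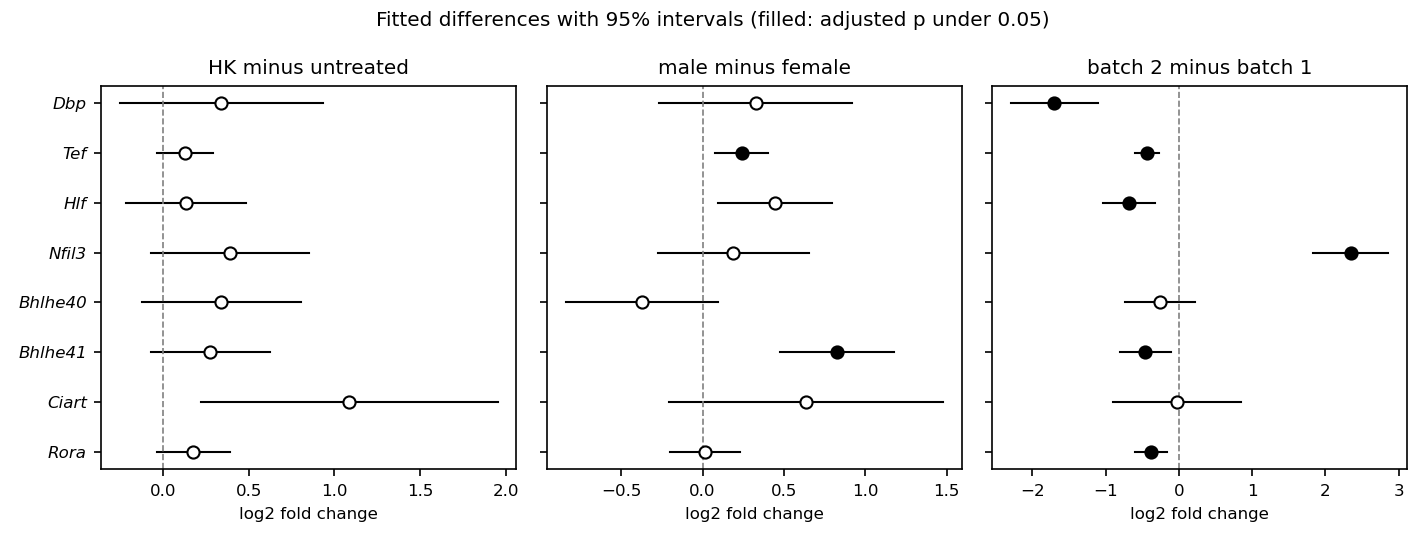
Fitted log2 fold change of each member (points) with its 95% interval (lines) for the 3 comparisons, with filled points where the adjusted p in edgeR was under 0.05. No member is filled for HK, Tef and Bhlhe41 are for sex, and 6 of 8 are for batch, where Nfil3 at 2.34 and Dbp at -1.70 lie at opposite ends.

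The widest differences among the members lay between the 2 sequencing batches. Of the 8 members, 6 passed the test, 1 higher and 5 lower in batch 2, against 37.1% of all genes tested (18.2% higher and 19% lower). The repressor of D-box genes was higher in batch 2 and the D-box activators were lower. Nfil3 was at 13.6, 16.5 and 25.4 CPM in batch 1 and at 27.6, 84.0 and 198 CPM in batch 2 (lowest, median and highest of 8 and 12 mice). The batches did not overlap for Nfil3, which was the only member of which this was true, against 3.71% of all genes. The fitted difference was 2.34 on the log2 scale (SE 0.25, 95% interval 1.83 to 2.86), which is 5.07-fold (adjusted p = 1.40e-06 in edgeR's quasi-likelihood test), and Nfil3 stood at rank 64 of 13626 genes by p. It was called in every fit with a mouse left out. It was also called in males (2.64), females (2.05), untreated (2.31) and HK mice (2.35) fitted alone, where 25.9%, 11%, 16.1% and 10.9% of all genes were.

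Dbp was at 46.8, 83.3 and 105 CPM in batch 1 and at 6.90, 20.0 and 48.7 CPM in batch 2, and 11 of the 12 batch 2 mice were below every batch 1 mouse. The exception was HK male 3, at 48.7 CPM. The fitted difference was -1.70 (SE 0.28, 95% interval -2.30 to -1.11, adjusted p = 0.000171 in edgeR). GENCODE places 539 exon bases of Dbp (18.0%) on the opposite strand of exons of Sphk2, and since the use of strand in the counting is not given, reads there cannot be assigned to either gene for certain (the 2 genes held 17694 and 6597 counts in all). Dbp was also lower in batch 2 in males (-1.94), females (-1.47) and untreated mice (-1.97) fitted alone, and at -1.45 (adjusted p = 0.0550) in HK mice alone.

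The other PAR bZIP genes followed Dbp with smaller differences. Tef was at 259, 334 and 408 CPM in batch 1 and 184, 240 and 299 CPM in batch 2, with a fitted difference of -0.43 (SE 0.08, adjusted p = 0.000370), and Hlf was at 10.3, 20.7 and 24.8 CPM and 5.10, 11.6 and 18.8 CPM, with a difference of -0.68 (SE 0.17, adjusted p = 0.00389). All 12 batch 2 mice were below the batch 1 median for each of Dbp, Tef and Hlf. Rora, the activating nuclear receptor, was lower in batch 2 by -0.38 (SE 0.10, adjusted p = 0.00707), at 144 to 221 CPM in batch 1 and 84.2 to 170 CPM in batch 2.

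Among the repressors other than Nfil3, Bhlhe41 was lower in batch 2 by -0.46 (SE 0.17, adjusted p = 0.0389 in edgeR). That call was lost in 11 of the 20 fits with a mouse left out (adjusted p from 0.0512 to 0.0891): untreated males 1, 2, 3 and 5, untreated females 1, 3 and 5, HK males 1, 2 and 5, and HK female 5. Bhlhe40 (-0.26, SE 0.23, adjusted p = 0.396) and Ciart (-0.03, SE 0.42, adjusted p = 0.965) did not pass. In females alone, Dbp and Nfil3 kept their calls, and Tef (-0.27), Hlf (-0.37), Bhlhe41 (-0.16) and Rora (-0.15) lost theirs, while males alone kept all 6. In untreated mice alone 5 members were called and Rora was at -0.44 (adjusted p = 0.0745). In HK mice alone Nfil3 was the only member called, with Tef at -0.40 (adjusted p = 0.0544), Rora at -0.34 (0.0700), Hlf at -0.48 (0.158) and Bhlhe41 at -0.24 (0.555).

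Set per exon length, the 2 D-box factors changed places. The ratio of Nfil3 to Dbp in CPM per kb lay between 0.229 and 0.800 in batch 1 (median 0.274), below 1 in all 8 mice. In batch 2 it lay between 1.08 and 42.3 (median 5.47), above 1 in all 12 mice. The lowest batch 2 ratio was that of untreated male 4 and the highest that of HK male 4. The full split at 1 depends on the length used for Dbp, here 2993 bases of exon. With its longest transcript (1837 bases), and 2026 bases for Nfil3 either way, every ratio is lower. Untreated male 4, at 27.6 CPM of Nfil3 and 37.6 CPM of Dbp, is then below 1.

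**Figure D4:**
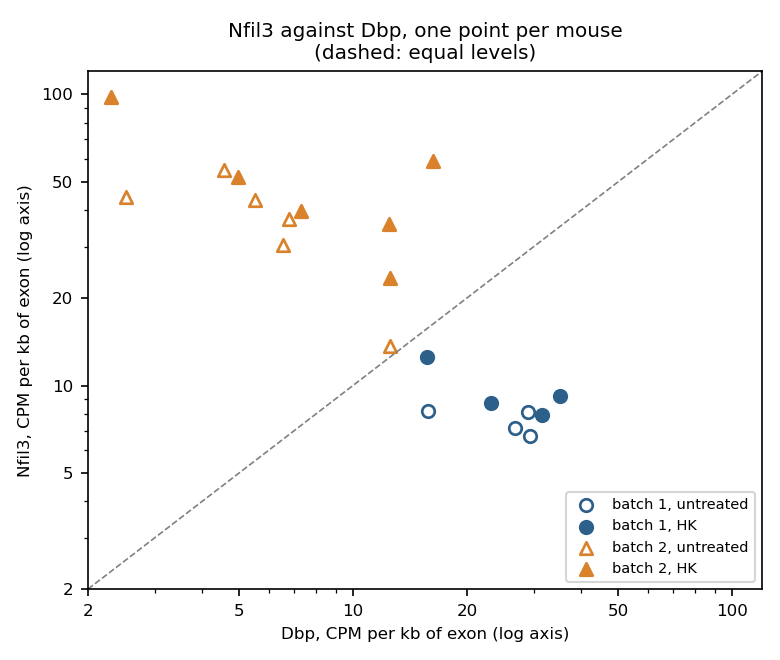
Nfil3 against Dbp in CPM per kb of exon (both axes log), one point per mouse, with blue circles for batch 1, orange triangles for batch 2, open symbols for untreated and filled symbols for HK mice, and a dashed line at equal levels. The 8 batch 1 mice lie below the line and the 12 batch 2 mice above it. This full split depends on the length used for Dbp: with its longest transcript, a batch 2 mouse falls below the line.

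The spread between mice also differed. After removal of sex and treatment within a batch, the SD of log2 CPM was larger in batch 2 for each of the 8 members, at 0.32 in batch 1 and 0.96 in batch 2 for Dbp, 0.22 and 0.72 for Nfil3, 0.13 and 0.66 for Bhlhe40 and 0.50 and 1.0 for Ciart. The medians over all 13626 genes were 0.17 and 0.23. The mice of batch 1 were thus the more alike in these genes, and no test of the spread was run.

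Of the 13 core clock genes 7 were called by batch, 2 higher and 5 lower in batch 2, beside 37.1% of all genes (18.2% higher and 19% lower), among them Nr1d2 (-0.56, adjusted p = 4.33e-05). Of the 12 clock-controlled genes 7 were called, 5 higher and 2 lower, beside the same shares of all genes, with the lowest p-values for the cytochrome P450 reductase gene Por (0.33, adjusted p = 0.000814) and the NAD synthesis gene Nampt (-0.27, adjusted p = 0.00451). Markers of other cell types moved with batch as well. All 5 macrophage, all 4 fibro-adipogenic progenitor and all 4 red blood cell markers were higher in batch 2, with summed levels of 23.0 to 98.2, 258 to 1240 and 59.0 to 391 CPM, against 8.43 to 31.3, 145 to 370 and 29.0 to 93.2 CPM in batch 1. Of 8 muscle fibre markers 3 were higher and 1 lower, and no endothelial, adipocyte or Schwann cell marker was called. Their part in the members' differences was not tested, and batch cannot be told apart from anything else that differed between the 2 experiments.

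Whether the members rise and fall together from mouse to mouse was examined after batch, sex and treatment had been removed from log2 CPM as additive terms, which leaves in any sex difference that is unlike in the 2 batches. With sex removed within each batch, an alternative chosen after seeing the data, the 9 relations that passed were those given here, with r from 0.71 to 0.86 for the 4 positive relations with Dbp and -0.73 for Nfil3. There were 15 relations, the 7 other members with Dbp and all 8 with Arntl. Each was tested by a two-sided permutation test of 100000 resamples within batch and sex, with Benjamini-Hochberg adjustment over the 15, and 9 passed by Pearson's r. Since these genes belong to one network and come from the same libraries, the relations are not independent of each other.

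With Dbp, 5 of 7 relations passed. The other PAR bZIP genes followed it most closely: Pearson's r was 0.85 for Tef (permutation p = 5e-05, adjusted 0.000375, Spearman's rho 0.84, permutation p = 0.00012) and 0.84 for Hlf (permutation p = 4e-05, adjusted 0.000375, rho 0.86, permutation p = 0.00012). The E-box repressors went the same way, with r of 0.77 for Bhlhe41 (permutation p = 0.00187, adjusted 0.00561, rho 0.73, permutation p = 0.00335) and 0.72 for Bhlhe40 (permutation p = 0.00669, adjusted 0.0125, rho 0.67, permutation p = 0.00904). Nfil3 went the opposite way, with r of -0.74 (permutation p = 0.0025, adjusted 0.00625, rho -0.66, permutation p = 0.00966). Ciart, at r = 0.51 (permutation p = 0.0506, adjusted 0.068, rho 0.45, permutation p = 0.0717), and Rora, at r = 0.11 (permutation p = 0.711, adjusted 0.711, rho 0.16, permutation p = 0.56), did not pass. Ciart passed without untreated male 4 (0.64, adjusted permutation p = 0.0321), untreated female 3 (0.54, 0.0459) or untreated female 5 (0.68, 0.0129).

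These signs were the same in both batches for the 5 relations that passed. In batch 1 (n = 8) r was 0.86 for Tef, 0.64 for Hlf, 0.61 for Bhlhe41, 0.29 for Bhlhe40 and -0.69 for Nfil3, with permutation p-values of 0.0442, 0.389, 0.168, 0.836 and 0.152. In batch 2 (n = 12) r was 0.86, 0.87, 0.77, 0.72 and -0.74 in the same order, with permutation p-values of 0.00062, 0.00041, 0.00849, 0.0144 and 0.0153. Without HK male 4 and untreated female 5, the 2 mice farthest from the median of Dbp, r was 0.80 for Tef, 0.85 for Hlf, 0.74 for Bhlhe41, 0.83 for Bhlhe40 and -0.62 for Nfil3. The adjusted permutation p-values were then 0.00665, 0.00665, 0.0215, 0.0051 and 0.0691, so that the relation with Nfil3 kept its sign and no longer passed.

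With Arntl, which encodes BMAL1, 4 of 8 relations passed, all negative: Dbp at r = -0.79 (permutation p = 0.00159, adjusted 0.00561, rho -0.71, permutation p = 0.00553), Hlf at -0.65 (permutation p = 0.00016, adjusted 0.0008, rho -0.70, permutation p = 0.00133), Bhlhe41 at -0.64 (permutation p = 0.012, adjusted 0.02, rho -0.58, permutation p = 0.0311) and Tef at -0.63 (permutation p = 0.00425, adjusted 0.00911, rho -0.68, permutation p = 0.00601). By rho, the adjusted permutation p of Bhlhe41 was 0.0519, above the threshold, and those of the other 3 were 0.015, 0.00665 and 0.015 (Dbp, Hlf and Tef). Arntl was highest, at 53.1 CPM, in HK male 4, the mouse with the lowest Dbp. The relations of Bhlhe40 (r = -0.61), Ciart (-0.59), Nfil3 (0.52) and Rora (-0.26) did not pass, with adjusted permutation p-values of 0.068, 0.068, 0.137 and 0.472. Their rho was -0.52, -0.39, 0.44 and -0.33, with permutation p-values of 0.115, 0.262, 0.12 and 0.324. With batch and sex alone removed, Bhlhe40 (r = -0.65, adjusted permutation p = 0.0255) and Ciart (-0.65, 0.0404) passed. Ciart also passed without untreated female 3 (-0.65, 0.0459) or untreated female 5 (-0.62, 0.0472). The Nfil3 relation was 0.68 (adjusted permutation p = 0.0178) without HK male 3 and 0.26 (0.545) without HK male 4. Without HK males 3 and 4, the 2 mice farthest from the median of Arntl, r was -0.57 for Dbp, -0.65 for Hlf, -0.63 for Tef and -0.42 for Bhlhe41, with adjusted permutation p-values of 0.0667, 0.019, 0.062 and 0.241. Of the 4 relations only that of Hlf still passed. The r of Tef was as with all mice, and those of Dbp and Bhlhe41 were nearer to 0. Without HK male 4 alone, Dbp and Hlf passed, and Tef (-0.52, adjusted permutation p = 0.0662) and Bhlhe41 (-0.42, 0.162) did not. Within batch 1 and batch 2, r was -0.44 and -0.86 for Dbp (permutation p = 0.442 and 0.00119), -0.83 and -0.66 for Hlf (0.0814 and 0.00052), -0.79 and -0.57 for Tef (0.0651 and 0.0261) and -0.94 and -0.65 for Bhlhe41 (0.00197 and 0.0352).

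**Figure D5:**
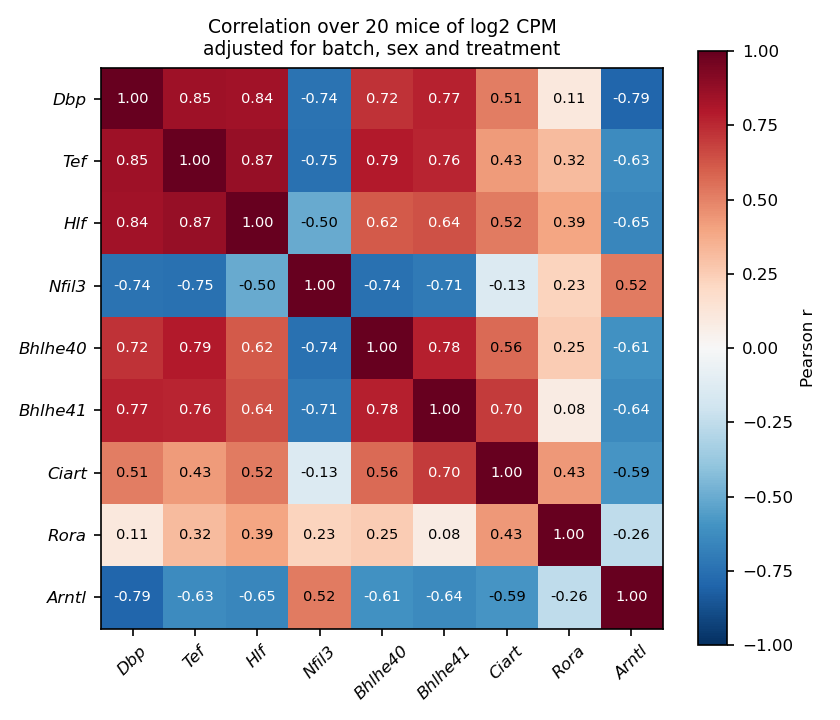
Pearson's r between the members and Arntl over the 20 mice, on log2 CPM with batch, sex and treatment removed (red positive, blue negative). Dbp, Tef, Hlf, Bhlhe40 and Bhlhe41 form a block of positive values, Nfil3 and Arntl are negative with it (r of -0.74 and -0.79 with Dbp), and Rora stands near 0 with Dbp at 0.11.

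The members lie on 8 places of GRCm38, as GENCODE M21 gives them: Dbp at chr7:45705088-45710203, Tef at chr15:81802421-81826863, Bhlhe40 at chr6:108660629-108666925 and Rora at chr9:68653786-69388246 on the plus strand, and Hlf at chr11:90336536-90390895, Nfil3 at chr13:52967209-52981073, Bhlhe41 at chr6:145858243-145865558 and Ciart at chr3:95878503-95882251 on the minus strand. Exon lengths ranged from 2026 bases for Nfil3 to 13071 bases for Rora. Besides Dbp, Bhlhe41 shared 19% of its exon bases with a gene on the opposite strand, Gm43909, which held 37 counts in all mice against 22746 for Bhlhe41.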

How the data were processed

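RNA was isolated with TRIzol, depleted of ribosomal RNA and sequenced. The authors aligned the reads with STAR 2.6.1c to GRCm38.p6, quantified genes with GENCODE M25 and deposited raw counts per gene, 1 column per mouse, with no batch or sex correction; which tool counted them, and whether it used strand or multi-mapped reads, is not given in the sources used here. Treatment, sex, batch and replicate came from the labels, and age and treatment length from the study's methods. The members and gene lists were chosen with earlier results of these data known.

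Counts were filtered with filterByExpr (13626 of 55401 genes), scaled by TMM and tested with edgeR 4.0.16 (quasi-likelihood, batch, sex and treatment in one fit) in R 4.3.3, with Benjamini-Hochberg adjustment over all genes tested and a call at an adjusted p under 0.05. SEs were the log2 fold change divided by the square root of F. Interaction terms were fitted separately. Mice are separate animals, so p-values measure the spread between mice. CPM used effective library sizes, log2 CPM a prior count of 2, and lengths and positions GENCODE M21, an older release than the authors' own. Names matched for 55141 genes. All 8 members were named in every comparison, and of the core clock and clock-controlled lists the 2 genes with the lowest p, apart from 1 gene that is not reported here. The 16 pairs of mice of one group and batch were too far apart to be one library (chi-square over degrees of freedom from 8.06 to 49.6), so none was counted as a duplicate. The scripts were tested on simulated data. Alternatives were DESeq2 1.42.0, limma 3.58.1, other filters and covariates, each batch, sex or treatment alone, a replicate block and each mouse left out.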

Additional observations from a re-analysis of the deposited data

Results flagged for a closer look

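The fourth HK male stood apart from the 4 other HK males in 3 of the 8 members, by the gap to its nearest neighbour as a share of the group's range on log2 CPM adjusted for batch. The share was 0.88 for Bhlhe40 (64.5 CPM against 152 to 185 CPM in the others), 0.76 for Tef (231 against 282 to 408 CPM) and 0.716 for Bhlhe41 (40.5 against 71.4 to 113 CPM), where 0.71 is the limit for 5 mice. All 3 values were the lowest of the group. With equal spread, chance alone passes the limit in about 1 in 20 of such sets, and 32 sets of 5 mice were examined. Spread was not equal here, since each group mixes mice of both batches. For Bhlhe40 the SD of log2 CPM was 0.13 in batch 1 and 0.66 in batch 2. The 3 genes also ran together, with r from 0.76 to 0.79 over the 20 mice. The share of 1 in 20 may therefore not hold for these flags. The same mouse had the lowest Dbp (6.90 CPM), the highest Nfil3 (198 CPM) and the highest Arntl (53.1 CPM) of all 20 mice. Without it, the fitted HK difference of Nfil3 was 0.23 on the log2 scale and that of Ciart 1.17.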

How the results depend on the processing

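Without any filter on low counts, edgeR called 502 genes and 5 members for HK, 6 members for sex, 314 genes for HK by sex, and 225 genes and 1 member (Ciart) for HK by batch. In that fit the estimated prior degrees of freedom were infinite (4.26 with the filter), so each gene took the trended spread in place of its own. A filter of more than 10 counts in total was an alternative chosen after seeing the data (20154 genes, prior degrees of freedom 5.72). With it, 0 genes were called for HK and for both interactions. For sex it gave 2072 genes (10.3%) and 1 member, since Tef was then at an adjusted p of 0.0589 in edgeR. DESeq2's Wald test called 7 genes for HK. For sex, limma voom called 2252 of 13626 genes and 3 members (Bhlhe41, Tef and Hlf). For the other changes the cause was not tested.

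With part of the mice, the counts of called genes and members were 1316 and 5 for sex in batch 1, 878 and 0 in batch 2, 489 (3.6%) and 1 in untreated mice and 651 (4.82%) and 0 in HK mice. For batch they were 1497 and 2 in females, 1476 and 1 in HK mice, and 2192 genes in untreated mice. Signs turned only in values that did not pass: for HK in batch 1, Hlf at -0.086 and Bhlhe41 at -0.0057. For sex they turned in Nfil3 (-0.18) and Bhlhe40 (0.18) in batch 1, Rora (-0.17) in batch 2, and Nfil3 (-0.027) and Rora (-0.17) in untreated mice. For batch they turned in Bhlhe40 (0.23) and Ciart (0.39) in females and Ciart (0.85) in HK mice. In batch 1 alone, 0 relations with Dbp and 1 with Arntl passed, and r was -0.32 for Rora with Dbp and -0.043 for Nfil3 with Arntl. With sex removed within each batch, also chosen after seeing the data, 5 and 4 passed and r of Rora with Dbp was -0.0074. Without the 2 mice farthest from the median, 1 relation with Arntl and 4 with Dbp passed, and with batch and sex alone removed 6 and 5 did.

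With each mouse left out, the count of called genes was 0 to 1 for HK, 1827 to 2281 for sex and 4451 to 5235 for batch. Members called were 1 to 3 for sex and 5 to 6 for batch. Relations passing were 5 to 6 with Dbp and 2 to 5 with Arntl. Values that changed sign were Ciart for batch (-0.47 to 0.14), Rora for sex (-0.035 to 0.075), Ciart for HK by sex (-0.47 to 0.93) and r of Rora with Dbp (-0.012 to 0.25).

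Same-numbered mice were not paired: 3 of 10 such pairs had a correlation over 0.1 (range -0.38 to 0.29), and 3 of 10 mice correlated best with their own number. With the replicate number as a block, 0 genes were called for HK and for HK by sex and 1964 genes and 2 members for sex, the members being Bhlhe41 and Hlf (adjusted p = 0.0338) with Tef at 0.0524. Among the members, Ciart had the lowest range of counts, at 31 to 505 per mouse.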

Other observations

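The genes whose log2 CPM, after removal of batch, sex and treatment, ran most like each member over the 20 mice are given as a description, with no test, out of 13618 other genes. The period gene Per3 came first for each of the 3 PAR bZIP activators, with r of 0.88 for Dbp, 0.89 for Tef and 0.88 for Hlf, so these 3 genes shared their nearest pattern. For Nfil3 the nearest were Lrrc52 (0.91), Noct (0.90), which encodes nocturnin, and Ppp1r3c (0.90), which encodes a glycogen-targeting subunit of protein phosphatase 1. For Bhlhe41 the nearest was Ky (0.89), for Bhlhe40 Sema6d (0.86), for Ciart Msh3 (0.91) and for Rora Rev3l (0.92). The most opposite patterns were those of Lmf1 for Dbp (-0.87), Gabarapl1 for Tef (-0.88), Rcan2 for Hlf (-0.87) and Xylt2 for Nfil3 (-0.88). All points share their libraries and depth, and the highest of many correlations is large by selection.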
